A study of Mus musculus with 4 samples.

Results

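The SOX transcription factors described here were *Sox4*, *Sox9*, *Sox10*, *Sox11* and *Sox12*, which are 5 of the 28693 genes in the count matrices. They were taken by gene symbol, and the group was picked because *Sox11* appeared from near 0 in luminal cells after *Lats1* and *Lats2* were deleted, that is, they were chosen by the *Sox11* UMI counts of that contrast, so the luminal values of the knockout against the control are given below as a description, without a test. The data were droplet-based 3' single-cell RNA counts of mouse mammary glands, sorted only for live cells, from 4 mice with 1 library each: 2 WT and 2 LATS1/2 KO. All mice carried Lats1f/f;Lats2f/f;R26-lsl-EYFP and received 2 mg Tamoxifen intraperitoneally on 5 consecutive days, with collection 7 days after the last dose. The LATS1/2 KO mice also carried Krt8-CreERT2, a Tamoxifen-dependent Cre driven by the promoter of a luminal keratin gene, while the WT mice carried no Cre. LATS1/2 KO replicate 1 was heterozygous and LATS1/2 KO replicate 2 homozygous for the reporter allele, the labels give no age, and both WT mice were heterozygous for it.

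SOX proteins bind DNA through a high mobility group domain, bend it, and act with partner factors to set cell identity. *Sox4*, *Sox11* and *Sox12* form the SOXC group, known for progenitor and migratory states in neural and mesenchymal development. *Sox9* (SOXE group) marks luminal progenitors and drives cartilage genes, and *Sox10*, its SOXE relative, is the master factor of neural crest and Schwann cells and is also made in mammary stem and progenitor cells. LATS1 and LATS2 are the Hippo kinases that restrain YAP and TAZ, which act on DNA through TEAD factors.

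The genes lie on GRCm38 chromosome 13 (*Sox4*, ENSMUSG00000076431, 28948919 to 28953713, minus strand), chromosome 11 (*Sox9*, ENSMUSG00000000567, 112782224 to 112787760, plus strand), chromosome 15 (*Sox10*, ENSMUSG00000033006, 79154908 to 79165240, minus strand), chromosome 12 (*Sox11*, ENSMUSG00000063632, 27334264 to 27342574, minus strand) and chromosome 2 (*Sox12*, ENSMUSG00000051817, 152393611 to 152398063, minus strand). The 250 bases before the RefSeq start, which for *Sox4* and *Sox11* is not the start in the coordinates above, are shown for the SOXC members *Sox4* and *Sox11*, the members with the highest LATS1/2 KO to WT ratios among the comparisons below. Capitals mark the TEAD motif GGAATG, searched on both strands (GGAATG or CATTCC). The sequences are from RefSeq (GRCm38.p6).
Sox4, chr13:28953700-28953949, minus strand: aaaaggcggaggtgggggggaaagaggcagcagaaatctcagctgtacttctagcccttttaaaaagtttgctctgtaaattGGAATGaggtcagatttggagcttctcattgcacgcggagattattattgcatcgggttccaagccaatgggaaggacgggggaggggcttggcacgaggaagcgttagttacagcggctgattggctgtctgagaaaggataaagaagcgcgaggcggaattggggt
Sox11, chr12:27342719-27342968, minus strand: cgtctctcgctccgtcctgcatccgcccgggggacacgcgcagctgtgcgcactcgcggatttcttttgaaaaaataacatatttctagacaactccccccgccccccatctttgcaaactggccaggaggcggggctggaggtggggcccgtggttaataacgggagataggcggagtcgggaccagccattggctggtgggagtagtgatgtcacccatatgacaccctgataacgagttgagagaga
The *Sox4* window held 1 match, whose start lay 168 bases before the gene start, and the *Sox11* and *Sox12* windows held 0. The motif occurred in 12.6% of the 32851 windows of this length in the table. A match is a description of letters and not a measured binding site. *Sox9* and *Sox10* were not in this table.

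After filtering, the libraries held 3515 to 5272 cells and 38792520 to 46810771 UMIs (unique molecular identifiers, each standing for a captured transcript). Cells were put into lineages by marker genes, none of them a SOX gene. Luminal ER- cells (the progenitor lineage) numbered 2988 and 2162 in WT and 1980 and 1999 in LATS1/2 KO. Luminal ER+ cells (hormone-sensing) numbered 1282 and 964 in WT but 543 and 189 in LATS1/2 KO. Luminal cells without an ER class numbered 92 and 60 against 642 and 646. Their ER- and ER+ marker scores lay too close together to assign a class, whether both were low or both were similar. Levels are given as CPM, the UMIs of a gene per 1000000 UMIs of all genes summed over a lineage in a library, with n = 2 mice per group. The luminal ER+ markers summed to 15039 and 13666 CPM in WT luminal ER+ cells but 5611 and 3428 CPM in those of LATS1/2 KO. The luminal ER- markers summed to 8567 and 9869 CPM in WT luminal ER- cells but 2917 and 3005 CPM in those of LATS1/2 KO. A luminal label thus held cells with unlike marker levels in the groups, and the part of this in the SOX differences was not tested. Over all luminal cells *Lats1* stood at 24.2 and 24.0 CPM in WT and 15.6 and 16.6 CPM in LATS1/2 KO. Whether these 3' counts cover the deleted exons is not given in the sources used here. *Lats2* stood at 13.8 and 15.0 CPM in WT against 27.8 and 29.6 CPM in LATS1/2 KO. *EYFP* was found in 0.298% and 0.439% of WT luminal cells and in 21.8% and 28.2% of LATS1/2 KO luminal cells. Barcodes shared between libraries touched 11 of the luminal cells that held *Sox11*.

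**Figure D1:**
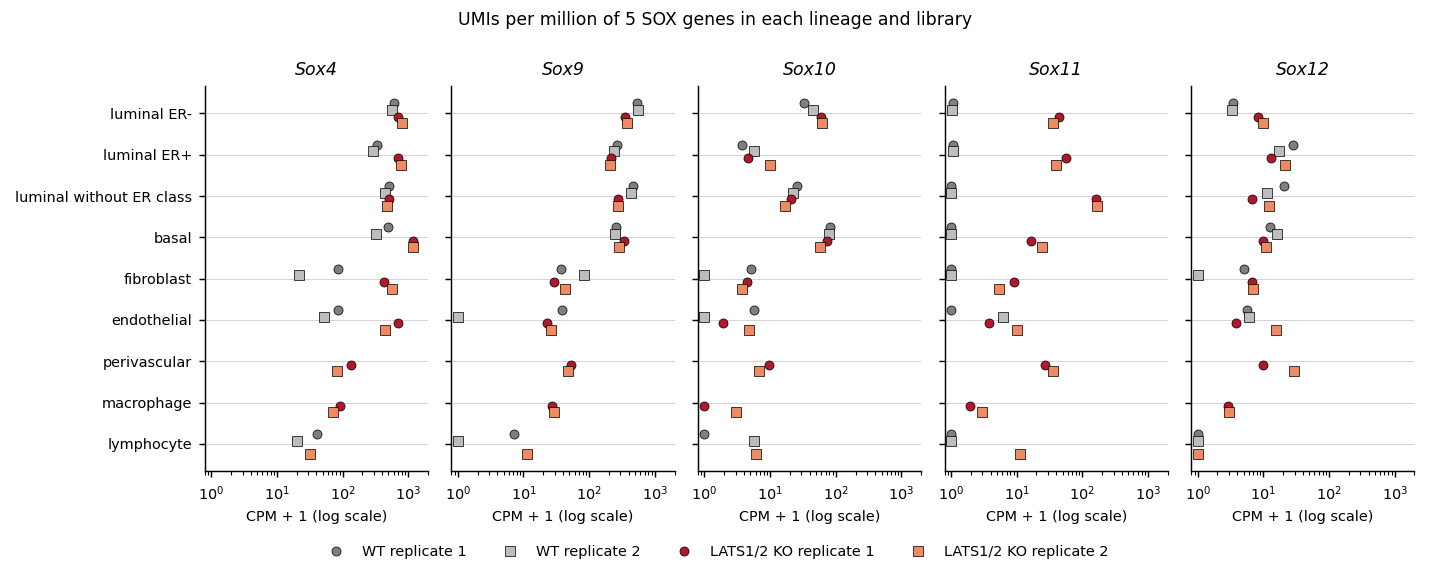
Level of each SOX gene (CPM + 1, log scale) in each lineage, with 1 point per library and grey for WT and red or orange for LATS1/2 KO. Only sums of at least 20 cells are drawn, so perivascular cells and macrophages have no WT points. *Sox11* sits at or near 0 in every WT luminal and basal sum, and *Sox4* is lower in WT than in LATS1/2 KO in basal cells, fibroblasts and endothelial cells.

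*Sox11* was nearly silent in the WT gland and present in every LATS1/2 KO luminal class. In luminal ER- cells it was counted 2 and 1 times in the WT libraries and 850 and 772 times in the LATS1/2 KO libraries, which is 0.0749 and 0.0448 CPM against 43.4 and 35.1 CPM. The ratio of the pooled counts was 638, with a 95% counting interval of 218 to 3097 that is wide because it rests on 3 WT UMIs. In luminal ER+ cells there was 1 UMI in each WT library against 258 and 71 in LATS1/2 KO, a ratio of 849 (counting interval 233 to 7039). The highest *Sox11* level of any lineage was in the luminal cells without an ER class, at 163 and 167 CPM in LATS1/2 KO and 0 UMIs in both WT libraries. The LATS1/2 KO libraries lay close together and far from WT in each of these classes.

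**Figure D2:**
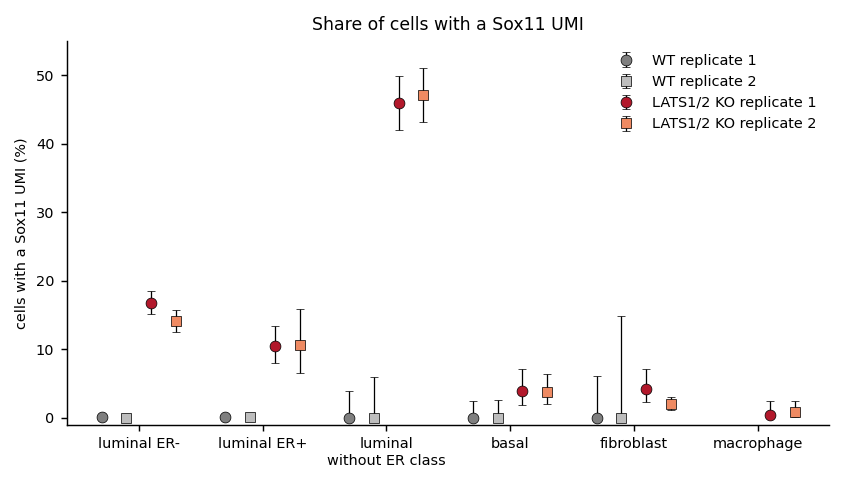
Percent of cells with at least 1 *Sox11* UMI per lineage and library, with exact 95% binomial intervals that cover counting error only. In LATS1/2 KO the luminal cells without an ER class reach 46.0% and 47.1%, above luminal ER- cells (16.7% and 14.1%) and luminal ER+ cells (10.5% and 10.6%), while WT luminal cells sit at or near 0.

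The *Sox11* transcripts came from a minority of cells. Of all luminal cells, 683 of 3165 (21.6%, exact interval 20.2 to 23.1) and 605 of 2834 (21.3%, 19.9 to 22.9) held a *Sox11* UMI in the LATS1/2 KO libraries, against 3 of 4362 and 2 of 3186 in WT. A share of cells with a UMI also counts free RNA from broken cells, and macrophages, which should lack the gene, gave 0.439% and 0.838% in the same LATS1/2 KO libraries (median depth 4216 and 3688 UMIs, against 8133 and 8808 in luminal cells). After each cell was thinned to 2000 UMIs, which left out 241 and 193 LATS1/2 KO luminal cells and 188 and 68 WT luminal cells, the luminal shares were 8.34% and 7.61% in LATS1/2 KO. The thinned WT shares were 0 of 4174 and 0 of 3118 cells, which allows up to 0.0719% and 0.0962%. The thinned macrophage shares were 0 of 193 cells, which allows up to 1.55%, and 0.377%. Among the positive LATS1/2 KO cells, 252 and 199 held 1 UMI, 279 and 240 held 2 to 4, and 152 and 166 held 5 or more, with up to 41 and 34 in a cell. Luminal cells without an ER class made up 43.2% and 50.2% of the positive cells.

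The other SOXC genes, *Sox4* and *Sox12*, were already present in WT luminal cells. In luminal ER+ cells *Sox4* was at 334 and 286 CPM in WT and 711 and 763 CPM in LATS1/2 KO, a log2 fold change of 1.20 ± 0.12 (SE). In luminal ER- cells it was at 605 and 573 CPM in WT and 697 and 792 CPM in LATS1/2 KO. There the groups did not overlap in CPM, but the log2 fold change was -0.02 ± 0.11 after TMM scaling (which centres the bulk of genes) and 0.34 when total UMIs alone set the scale, a change that also moved the median of all genes from 0.01 to 0.37. No direction is therefore given for *Sox4* in luminal ER- cells. *Sox12* in luminal ER- cells was at 2.43 and 2.33 CPM in WT and at 7.36 and 8.92 CPM in LATS1/2 KO (1.41 ± 0.20). In luminal ER+ cells *Sox12* overlapped between the groups, with 27.1 and 16.5 CPM in WT and 12.3 and 20.4 CPM in LATS1/2 KO.

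Of the SOXE members, *Sox9* was lower and *Sox10* higher in CPM in both LATS1/2 KO libraries than in both WT libraries of luminal ER- cells. *Sox9* was at 536 and 561 CPM in WT and 353 and 374 CPM in LATS1/2 KO, a log2 fold change of -0.95 ± 0.10, and kept this direction when total UMIs alone set the scale (-0.60). *Sox9* in luminal ER+ cells was at 269 and 242 CPM in WT and 216 and 207 CPM in LATS1/2 KO (-0.32 ± 0.11). *Sox10* in luminal ER- cells was at 31.7 and 44.4 CPM in WT and 59.0 and 60.6 CPM in LATS1/2 KO. Its log2 fold change was 0.65 on the scale of mean CPM but 0.30 ± 0.16 after TMM scaling, so no direction beyond CPM is given for it. The ratio of *Sox4* to *Sox9* UMIs was 1.13 and 1.02 in WT luminal ER- cells and 1.98 and 2.12 in LATS1/2 KO, and in luminal ER+ cells it was 1.24 and 1.18 against 3.30 and 3.68. This ratio does not depend on the scaling. Over all genes tested, 59.6% passed an adjusted p under 0.05 in luminal ER- cells and 31.9% in luminal ER+ cells. The members past the same threshold were 3 of 5 and 2 of 5, counts from which nothing is read, since these contrasts chose the group. Of the genes that passed in luminal ER- cells 52.2% were higher in LATS1/2 KO, and 74.1% were when total UMIs alone set the scale.

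**Figure D3:**
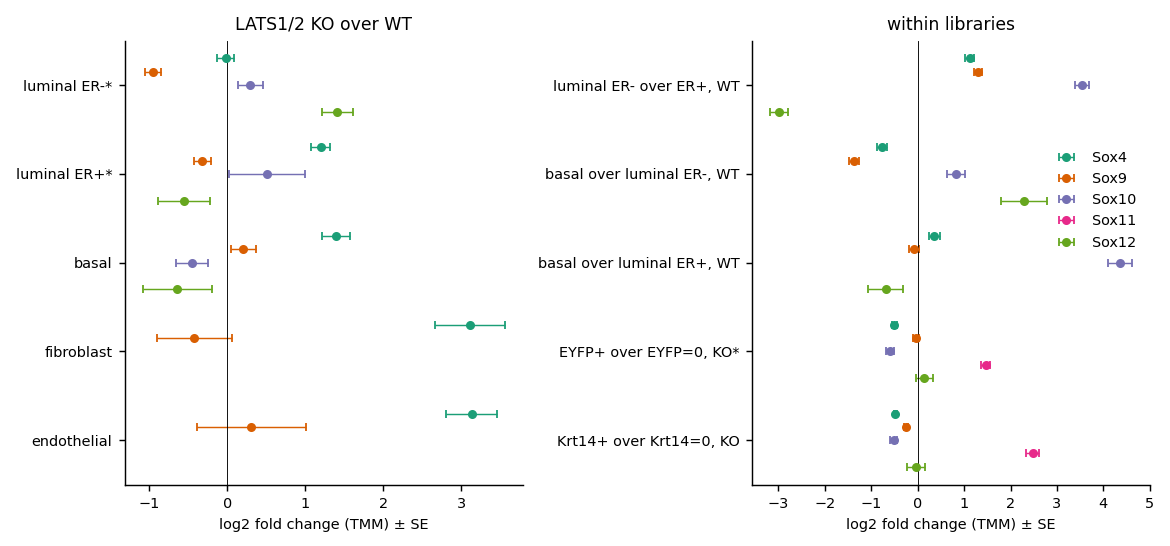
Log2 fold changes with TMM scaling and their standard errors for LATS1/2 KO over WT by lineage and for the comparisons within libraries. An asterisk marks comparisons described without a test, and *Sox11* is left out of the left panel because WT holds 0 to 3 UMIs in each luminal or basal sum. *Sox4* lies above 1 in luminal ER+ cells, basal cells, fibroblasts and endothelial cells.

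Outside the luminal lineage *Sox4* was higher in LATS1/2 KO in each of the 3 lineages tested. In basal cells (the contractile outer layer) it was at 495 and 327 CPM in WT and 1185 and 1183 CPM in LATS1/2 KO, the highest *Sox4* level of any lineage sum, and rose by 1.39 ± 0.18 on the log2 scale (adjusted p = 5.9e-06, edgeR quasi-likelihood test). In fibroblasts it was at 84.7 and 20.6 CPM in WT, from 21 and 2 UMIs, and at 423 and 568 CPM in LATS1/2 KO, a rise of 3.11 ± 0.44 (adjusted p = 0.0038). In endothelial cells it was at 85.0 and 51.1 CPM in WT, from 18 and 10 UMIs, and at 710 and 448 CPM in LATS1/2 KO, a rise of 3.13 ± 0.33 (adjusted p = 2.5e-05). In all 3 lineages both LATS1/2 KO libraries lay above both WT libraries, although the WT sums of fibroblasts (59 and 23 cells) and endothelial cells (38 and 34 cells) were small. The rise in fibroblasts was smaller, at 1.45 (adjusted p = 0.048), when lineages were named from clusters, and it was 4.86 without WT replicate 1 (adjusted p = 0.028). The groups also held different mixes of cells by clustering. All gated WT basal cells fell in one cluster, which held 1.58% and 0.312% of LATS1/2 KO basal cells, while 94.5% and 95.6% of LATS1/2 KO basal cells fell in another. Of the fibroblasts 94.9% and 100% in WT but 35.0% and 74.2% in LATS1/2 KO lay in the cluster that held most WT fibroblasts, and within it *Sox4* was at 54.9 and 20.6 CPM in WT and 459 and 627 CPM in LATS1/2 KO. Gated endothelial cells fell in a shared cluster in all libraries. The share of fibroblasts with a *Sox4* UMI at 2000 UMIs per cell was 11.5% (6 of 52 cells, exact interval 4.35 to 23.4) and 11.1% (2 of 18, 1.38 to 34.7) in WT. In LATS1/2 KO it was 50.9% (136 of 267, 44.8 to 57.1) and 54.1% (423 of 782, 50.5 to 57.6).

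Epithelial RNA also differed between the groups in these lineages. The basal keratin *Krt14* was at 0 UMIs in both WT fibroblast sums and at 116 and 69.6 CPM in LATS1/2 KO fibroblasts, and at 0 against 110 and 59.0 CPM in endothelial cells. All 11 of 11 epithelial markers were detected in LATS1/2 KO fibroblasts, with a summed level of 1148 and 636 CPM, against 9 and 7 of 11 with 815 and 258 CPM in WT. In endothelial cells the same list gave 11 of 11 markers with 1449 and 809 CPM in LATS1/2 KO and 9 of 11 in each WT library with 1129 and 332 CPM. The markers at 0 included the basal keratins *Krt5* and *Krt17* in all 4 of these WT sums. Basal cells are themselves epithelial and the list holds their own keratins, so it does not measure foreign RNA there. In basal cells all 11 were detected in every library, with 7562 and 8059 CPM in LATS1/2 KO against 3081 and 2879 CPM in WT. The luminal keratin *Krt8* was at 1194 and 1511 CPM in LATS1/2 KO basal cells against 412 and 456 CPM in WT. *EYFP* was at 11.9 and 40.7 CPM against 1.93 and 3.37 CPM in these basal sums. The *Sox4* to *Sox9* ratio of UMIs was 2.08 and 2.09 over all LATS1/2 KO luminal cells, 15.2 and 13.7 in LATS1/2 KO fibroblasts and 32.7 and 18.0 in LATS1/2 KO endothelial cells. LATS1/2 KO macrophages of the same libraries held *Sox4* at 90.7 and 71.7 CPM. The part of epithelial RNA in the *Sox4* rises was not tested.

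The remaining members were mostly not called outside the luminal lineage. *Sox11* was at 0 UMIs in both WT basal sums and at 25 and 51 UMIs in LATS1/2 KO (15.7 and 23.0 CPM), which is at least 7.40-fold higher than the floor of 3 UMIs over the WT group. No test is given, because the gene passed the low-count filter through its LATS1/2 KO counts alone. With lineages taken from clusters the LATS1/2 KO basal sums held 8 and 21 *Sox11* UMIs (3.60 and 6.92 CPM). LATS1/2 KO fibroblasts held *Sox11* at 8.08 and 4.39 CPM, which compares with 0.935 and 1.99 CPM in macrophages. *Sox9* in basal cells was at 251 and 242 CPM in WT and 341 and 283 CPM in LATS1/2 KO, a log2 fold change of 0.21 ± 0.16 that did not pass (adjusted p = 0.35). *Sox10* in basal cells was at 81.2 and 77.5 CPM in WT and 72.2 and 56.0 CPM in LATS1/2 KO (-0.45 ± 0.20, adjusted p = 0.092), and *Sox12* gave -0.64 ± 0.44 (adjusted p = 0.28). *Sox9* did not pass in fibroblasts (adjusted p = 0.68) or endothelial cells (adjusted p = 0.85). *Sox10*, *Sox11* and *Sox12* were below the low-count filter in fibroblasts and endothelial cells, where only *Sox4* and *Sox9* could be tested. Leaving out *Sox11*, the members past the threshold were 1 of 4 in basal cells, 1 of 2 in fibroblasts and 1 of 2 in endothelial cells, beside 33.7%, 5% and 8.69% of all genes tested. Of the genes called in basal cells 51.0% were higher in LATS1/2 KO, and 61.3% were when total UMIs alone set the scale, which moved the median of all genes to 0.13. Lymphocytes, macrophages and perivascular cells were not tested, because at least 1 library held fewer than 20 of their cells.

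Within the WT gland 4 of the genes, all but *Sox11*, could be compared between epithelial lineages, which the selection did not use. *Sox10* was a basal and luminal ER- gene: it stood at 81.2 and 77.5 CPM in basal cells, 31.7 and 44.4 CPM in luminal ER- cells and 2.76 and 4.75 CPM in luminal ER+ cells. It was higher in luminal ER- than in luminal ER+ cells by 3.53 ± 0.15 on the log2 scale (adjusted p = 6.9e-13) and higher in basal than in luminal ER- cells by 0.82 ± 0.20 (adjusted p = 0.0030). Of the 5 Schwann cell markers, 3 to 4 were detected in the WT basal sums, at a summed 27.1 and 13.5 CPM, and 1 and 3 cells passed the Schwann gate. *Sox9* was highest in luminal ER- cells (536 and 561 CPM), exceeding luminal ER+ cells by 1.30 ± 0.08 (adjusted p = 2.4e-10). The log2 difference of basal from luminal ER- cells was -1.38 ± 0.11 for *Sox9* (adjusted p = 9.6e-09). Between basal and luminal ER+ cells *Sox9* showed no difference beyond the spread (-0.08 ± 0.11, adjusted p = 0.58).

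*Sox12* had the opposite order, with 27.1 and 16.5 CPM in WT luminal ER+ cells, 11.6 and 15.2 CPM in basal cells and 2.43 and 2.33 CPM in luminal ER- cells. The log2 difference was -2.98 ± 0.20 for luminal ER- against luminal ER+ cells (adjusted p = 3.0e-10), and 2.29 ± 0.50 for basal against luminal ER- cells (adjusted p = 0.0014). Basal and luminal ER+ cells did not differ beyond the spread (adjusted p = 0.17). *Sox4* followed the order luminal ER- (605 and 573 CPM), basal (495 and 327 CPM) and luminal ER+ (334 and 286 CPM). The log2 differences were 1.13 ± 0.10 between luminal ER- and luminal ER+ cells (adjusted p = 1.3e-08), -0.77 ± 0.12 between basal and luminal ER- cells (adjusted p = 3.8e-05) and 0.36 ± 0.12 between basal and luminal ER+ cells (adjusted p = 0.021). The basal and luminal ER+ ranges of *Sox4* overlapped, and that call was lost with DESeq2 (adjusted p = 0.062) and with clusters (adjusted p = 0.069). Members past the threshold were 4 of 4, 4 of 4 and 2 of 4 in the comparisons of luminal ER- with luminal ER+, basal with luminal ER- and basal with luminal ER+ cells, where 62%, 34.1% and 39.4% of all genes passed. When total UMIs alone set the scale, the share of called genes that were higher went from 47.7% to 34.8% in the first of these comparisons, with the median of all genes moving from -0.03 to -0.24, and from 44.1% to 58.9% in the second, with the median moving from -0.12 to 0.08. The 4 tested members kept their directions there. *Sox11* was below the low-count filter in these comparisons.

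In LATS1/2 KO basal cells held the highest *Sox4* level (1184 ± 1.70 CPM, SD, n = 2), followed by epithelial cells that matched no lineage (813 ± 36.0 CPM). Those cells, luminal ER- (745 ± 67.3 CPM) and luminal ER+ cells (737 ± 37.0 CPM) overlapped as neighbours, and endothelial cells (579 ± 185 CPM), fibroblasts (495 ± 103 CPM) and luminal cells without an ER class (488 ± 21.8 CPM) followed, each overlapping the next. *Sox10* overlapped between basal cells (64.1 ± 11.5 CPM) and luminal ER- cells (59.8 ± 1.12 CPM) and was lower in luminal ER+ cells (6.20 ± 3.69 CPM). *Sox12* in luminal ER+ cells was at 16.3 ± 5.73 CPM and lay above basal cells (9.36 ± 0.810 CPM), which overlapped with luminal ER- cells (8.14 ± 1.10 CPM). For *Sox11* the order was luminal cells without an ER class (165 ± 3.24 CPM), epithelial cells that matched no lineage (83.9 ± 17.1 CPM), luminal ER+ (46.8 ± 10.9 CPM), overlapping with luminal ER- (39.3 ± 5.87 CPM), and then basal cells (19.4 ± 5.19 CPM). Perivascular cells lay between luminal ER- and basal cells at 30.3 ± 5.70 CPM, but from only 3 and 6 UMIs.

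The lineage trace was compared with *Sox11* inside the LATS1/2 KO glands. *EYFP*-positive luminal cells (ER- and ER+ cells with at least 1 *EYFP* UMI) were set beside the 2098 and 1731 cells without a UMI, and 220 and 256 of the positive cells held 3 or more. Luminal cells without an ER class were left out, although they made up 43.2% and 50.2% of the *Sox11*-positive luminal cells. *EYFP* was found in 41.1% and 52.8% of that class, against 17.6% and 20.5% of luminal ER- and 14.0% and 24.9% of luminal ER+ cells. *Sox11* was at 30.3 and 23.2 CPM in cells with 0 *EYFP* UMIs. With 1 UMI it was at 103 and 54.9 CPM, with 2 at 48.0 and 86.8 CPM and with 3 or more at 91.3 and 59.0 CPM, so every positive class lay above the class of 0 in its own mouse, in no steady order. The log2 fold change of positive over 0 was 1.46 ± 0.09, with the mouse as a block. Cells with 0 *EYFP* UMIs had a median depth of 7224 and 7366 UMIs and cells with 3 or more had 17056 and 18628. With all cells thinned to 2000 UMIs, keeping their original class, 3.94% and 2.81% of the cells of class 0 and 14.1% and 8.59% of the cells of class 3 or more held a *Sox11* UMI. *Sox4* and *Sox10* had log2 differences of -0.50 ± 0.05 and -0.59 ± 0.09, and *Sox9* and *Sox12* lay at -0.04 ± 0.06 and 0.14 ± 0.18. These values are a description, since the comparison stands in the rule that set up the group. Of all genes 37.4% passed the threshold here.

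**Figure D4:**
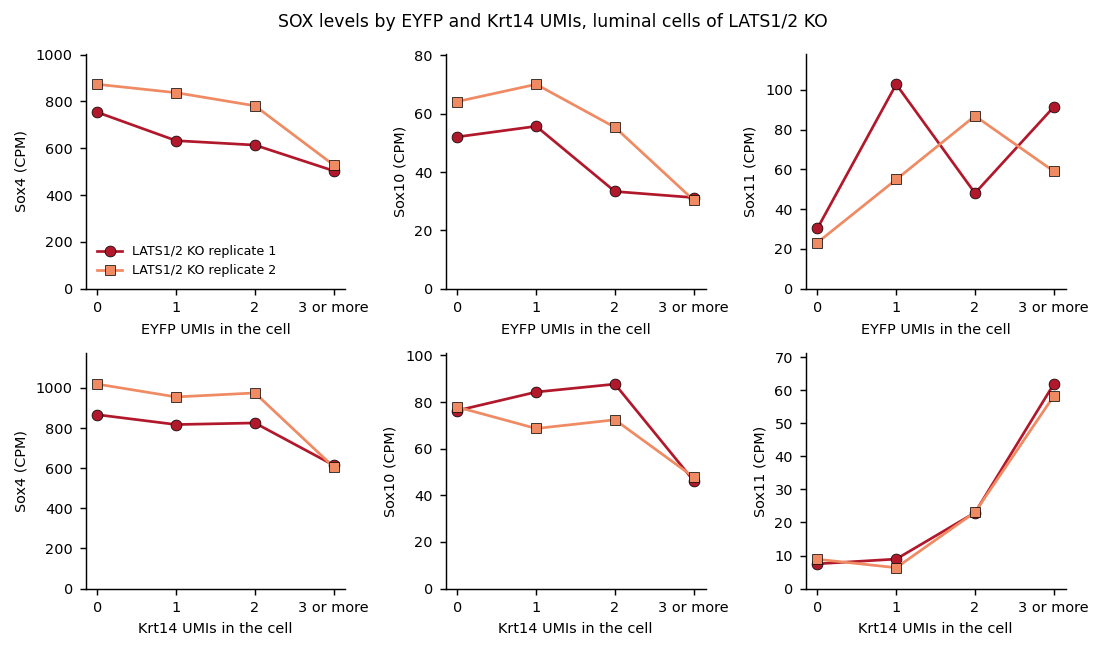
Levels of *Sox4*, *Sox10* and *Sox11* (CPM) by the number of *EYFP* UMIs in luminal ER- and ER+ cells (top) and of *Krt14* UMIs in luminal ER- cells (bottom), with 1 line per LATS1/2 KO library. *Sox11* goes from 7.48 and 8.86 CPM at 0 *Krt14* UMIs to 61.9 and 58.3 CPM at 3 or more, while *Sox4* goes from 867 and 1019 CPM to 615 and 606 CPM.

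*Sox11* also went with *Krt14*, a keratin of basal cells, among luminal ER- cells of LATS1/2 KO. Cells with 0, 1, 2 and 3 or more *Krt14* UMIs held *Sox11* at 7.48, 8.92, 23.0 and 61.9 CPM in LATS1/2 KO replicate 1. In LATS1/2 KO replicate 2 the same classes held 8.86, 6.30, 23.1 and 58.3 CPM. Classes 0 and 1, which free *Krt14* RNA can mix, did not differ in a shared direction, and class 3 or more was highest in both mice. *Krt14*-positive cells exceeded *Krt14*-free cells by 2.48 ± 0.14 on the log2 scale (adjusted p = 1.4e-08). *Sox4* fell by 0.48 ± 0.04 (adjusted p = 6.5e-07), *Sox10* by 0.52 ± 0.08 (adjusted p = 0.00011) and *Sox9* by 0.25 ± 0.04 (adjusted p = 0.00052), and *Sox12* did not pass (-0.03 ± 0.20, adjusted p = 0.91). These were 4 of 5 members beside 42.7% of all genes, and the p-values rest on 4 sums of 2 mice. The *Sox9* call was lost when cells were thinned to 2000 UMIs before the split (adjusted p = 0.23). Median depth was 4802 and 5848 UMIs in cells with 0 *Krt14* UMIs and 12963 and 15638 in cells with 3 or more.

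Cell by cell, *Sox11*-positive luminal cells of LATS1/2 KO were compared with *Sox11*-free ones at 2000 UMIs each, as a description of 244 and 201 positive cells. *Krt14* was detected in 88.1% and 81.6% of them against 49.2% and 41.4% of the cells without *Sox11*, and *EYFP* in 24.2% and 26.9% against 9.07% and 12.5%. The prostaglandin synthase *Ptgs2* was detected in 32.8% and 23.9% against 12.8% and 8.36%, and the cornified envelope gene *Crct1* in 9.02% and 8.96% against 3.51% and 2.30%. *Sox10* was detected in 2.87% and 2.49% against 9.74% and 11.1%, with intervals that did not meet in either mouse. By class, at the same depth, *Sox10* was detected in 5.37% and 5.08% of luminal cells without an ER class. It was detected in 12.7% and 12.8% of luminal ER- and 0.781% and 2.31% of luminal ER+ cells. The part of the mix of classes in this and the other differences here was not tested. *Sox4* was detected in 55.3% and 59.2% against 65.7% and 69.0%. *Sox9* was detected in 35.7% and 41.8% against 43.5% and 45.8%, with intervals that met in both mice. Summed without thinning, *Sox11* was at 126 and 127 CPM in *Ptgs2*-positive and 35.1 and 45.8 CPM in *Ptgs2*-free luminal cells, and at 133 and 122 CPM in *Crct1*-positive and 64.9 and 64.4 CPM in *Crct1*-free ones.

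The other SOX genes of the mouse genome numbered 14 in the list used here, and all were in the matrices. In endothelial cells 3 of 4 tested were lower in LATS1/2 KO: *Sox18* (-1.43 ± 0.24, adjusted p = 0.0011), *Sox13* (-1.52 ± 0.44, adjusted p = 0.041) and *Sox17* (-0.81 ± 0.23, adjusted p = 0.037). DESeq2 called 1 of the 4. *Sox17* and *Sox18* are the SOXF genes of vessel identity, at 264 to 312 CPM and 208 to 230 CPM in WT endothelial cells against 156 to 159 CPM and 76.5 to 79.3 CPM in LATS1/2 KO. The third SOXF gene, *Sox7*, stood at 161 to 174 CPM in WT and 149 to 160 CPM in LATS1/2 KO and did not pass (adjusted p = 0.93). The median log2 fold change of the 4 was -1.12 (beside 3.99% higher and 4.7% lower among all genes), against 0.03 over all genes tested. In basal cells 1 of 3 passed, beside 33.7% of all genes. It was the SOXE gene *Sox8*, which fell by 3.77 ± 0.41 (adjusted p = 6.9e-07) from 40.4 to 40.6 CPM in WT. In fibroblasts only *Sox5* could be tested, and it did not pass (adjusted p = 0.59).

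**Figure D5:**
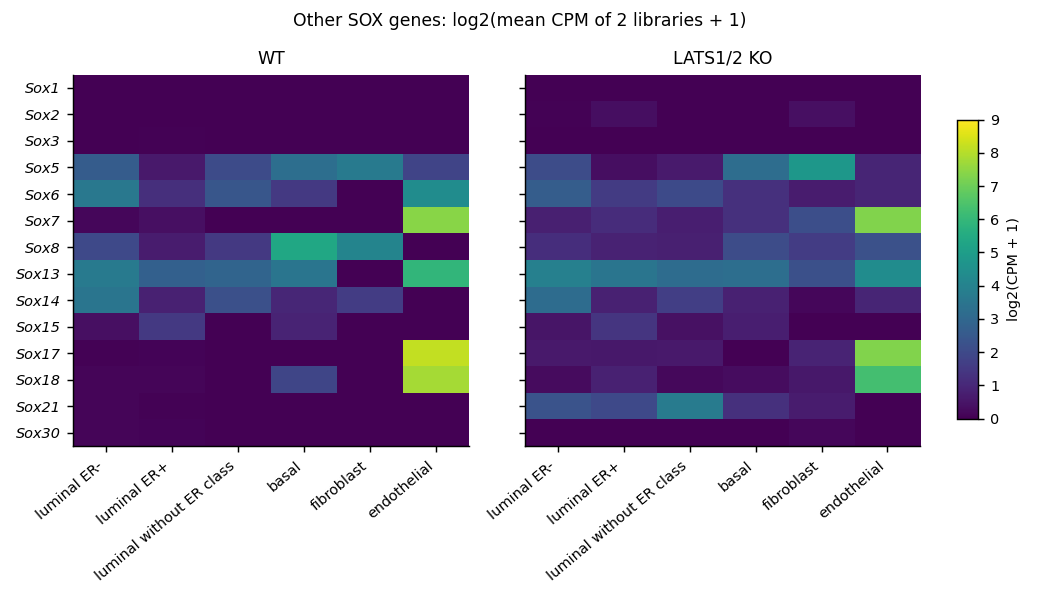
Levels of the 14 other SOX genes as log2(mean CPM of 2 libraries + 1) in 6 lineages of WT and LATS1/2 KO. *Sox7*, *Sox17* and *Sox18* are brightest in endothelial cells, *Sox8* in WT basal cells, and *Sox21* is visible in LATS1/2 KO luminal cells but not in WT.

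In luminal cells, whose contrast is again a description, *Sox21* (SOXB group, an antagonist of neural progenitor factors) resembled *Sox11*: it had 6 UMIs over all WT lineages and 406 over those of LATS1/2 KO. It was highest in luminal cells without an ER class, at 10.7 to 14.0 CPM. In luminal ER- cells the SOXD genes *Sox5* and *Sox6*, cofactors of *Sox9* in cartilage, had log2 fold changes of -1.04 ± 0.22 and -1.42 ± 0.18, and *Sox8* and *Sox14* of -1.58 ± 0.39 and -0.69 ± 0.23. In WT, *Sox5* (3.50 ± 0.46, adjusted p = 3.3e-06), *Sox6* (3.29 ± 0.24, adjusted p = 1.1e-09), *Sox8* (2.45 ± 0.48, adjusted p = 0.00022), *Sox13* (1.24 ± 0.20, adjusted p = 3.6e-05) and *Sox14* (3.90 ± 0.28, adjusted p = 9.1e-10) were higher in luminal ER- than in luminal ER+ cells. *Sox15* was lower there (-2.35 ± 0.49, adjusted p = 0.00046), which made 6 of 6 tested, beside 62% of all genes. *Sox1*, *Sox2*, *Sox3* and *Sox30* had 0 to 7 UMIs over all lineages of either group.

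Genes known as targets of the members in other tissues were read as 3 lists, described by counts and medians. Of the SOXC list, 9 of 14 could be tested in *Krt14*-positive against *Krt14*-free cells, where 5 rose and 1 fell, beside 22.7% and 20% of all genes, with a median of 0.68 against -0.0001 over all genes, and DESeq2 called 4. The microtubule regulator *Stmn2* (3.51 ± 0.64, adjusted p = 0.00057) and the actin bundler *Fscn1* (2.54 ± 0.11, adjusted p = 1.1e-09) rose most, and the RNA-binding gene *Mex3a* (-0.33 ± 0.08, adjusted p = 0.0043) was the one that fell. In basal cells of LATS1/2 KO against WT 2 of 7 rose, *Tubb2b* (3.30 ± 0.26, adjusted p = 9.2e-09) and *Fscn1* (2.73 ± 0.39, adjusted p = 2.3e-05), and *Mex3a* fell (-0.57 ± 0.18, adjusted p = 0.018), with a median of 0.04, beside 17.1% of all genes higher and 16.5% lower. In fibroblasts, where *Sox4* rose, 0 of 9 passed by edgeR, beside 2.34% of all genes higher and 2.66% lower. Of the 9 genes 1 had an unadjusted p under 0.05, and DESeq2 called 0. Their median was 0.97, against 0.06 over all genes. In endothelial cells 2 of 7 rose, *Fscn1* (1.98 ± 0.57, adjusted p = 0.039) and *Marcksl1* (1.43 ± 0.33, adjusted p = 0.011), and 2 fell, *Stmn2* (-2.76 ± 0.23, adjusted p = 3.4e-06) and the semaphorin receptor *Nrp1* (-1.56 ± 0.22, adjusted p = 0.00024), beside 3.99% of all genes higher and 4.7% lower, and DESeq2 called 2 of the 7. In luminal ER- cells of LATS1/2 KO, as a description, the median was 2.52 over 9 tested genes, led by *Fscn1* (6.61 ± 0.21) and *Nrp1* (3.93 ± 0.47). The median of all genes was 0.01 there, and 7 of the 9 were higher and 0 lower, beside 31.1% and 28.5% of all genes.

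The SOX9 list, mostly cartilage matrix genes, was low in WT luminal ER+ cells: 10 of 12 tested were higher and 1 was lower in luminal ER- than in luminal ER+ cells, beside 29.6% and 32.4% of all genes, with a median of 3.50. The list also holds *Sox5* and *Sox6*, which are counted above among the other SOX genes as well. The collagen genes *Col9a1* (4.0 ± 0.34, adjusted p = 8.3e-09) and *Col11a1* (3.90 ± 0.28, adjusted p = 1.0e-09) differed most, and the matrilin *Matn4* was the lower gene (-1.66 ± 0.11, adjusted p = 5.0e-10). The list did not follow *Sox9* in the other WT comparisons. In basal against luminal ER- cells, where *Sox9* was lower, 5 of 12 were higher and 2 lower (median 0.55), beside 15.0% and 19.0% of all genes. In basal against luminal ER+ cells, where *Sox9* did not differ, 6 were higher and 0 lower (median 2.09), beside 17.8% and 21.6%. In *Krt14*-positive against *Krt14*-free cells 2 of 11 rose and 5 fell, beside 22.7% and 20% of all genes, with a median of -0.62, and DESeq2 called 4. *Col11a1* (1.65 ± 0.19, adjusted p = 1.4e-05) and *Ctgf* (1.16 ± 0.04, adjusted p = 2.2e-10), the latter also a textbook YAP target, rose, and *Col11a2* (-1.62 ± 0.46, adjusted p = 0.011) and *Col9a1* (-1.20 ± 0.16, adjusted p = 3.7e-05) fell most. In basal cells of LATS1/2 KO 2 of 7 rose, *Col9a3* (1.17 ± 0.22, adjusted p = 0.00039) and *Ctgf* (0.53 ± 0.20, adjusted p = 0.042), and 2 fell, *Col9a2* (-1.42 ± 0.18, adjusted p = 4.7e-06) and *Mia* (-1.40 ± 0.30, adjusted p = 0.0011). Of all genes 17.1% were higher and 16.5% lower there, and DESeq2 called 3 of the 7. In luminal ER- cells of LATS1/2 KO against WT, as a description, 1 of 12 was higher and 8 were lower, with a median of -1.11. Of all genes 31.1% were higher and 28.5% lower in those cells.

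Of the SOX10 list, 4 of 15 genes could be tested in basal cells of LATS1/2 KO against WT. *Mbp*, a myelin gene that is also among the Schwann cell markers above, rose (1.63 ± 0.49, adjusted p = 0.013), and the zinc finger gene *Egr2* (-3.19 ± 0.20, adjusted p = 2.3e-10) and *Mia* (-1.40 ± 0.30, adjusted p = 0.0011) fell, with a median of -0.08. Beside them stand 17.1% of all genes higher and 16.5% lower, and DESeq2 called 2 of the 4. Between WT luminal ER- and luminal ER+ cells 3 of 4 tested were higher and 0 lower, beside 29.6% and 32.4% of all genes. Between WT basal and luminal ER- cells 2 of 4 were higher and 1 lower, beside 15.0% and 19.0%. *Egr2* followed the *Sox10* order of the WT lineages, higher in basal than in luminal ER- cells by 3.26 ± 0.15 (adjusted p = 1.1e-11) and higher in luminal ER- than in luminal ER+ cells by 0.84 ± 0.13 (adjusted p = 1.8e-05). *Erbb3*, a receptor tyrosine kinase, went against that order, at -4.38 ± 0.40 in basal against luminal ER- cells (adjusted p = 8.8e-08). In *Krt14*-positive against *Krt14*-free cells 2 of 5 fell, *Egr2* (-1.30 ± 0.14, adjusted p = 6.7e-06) and *Erbb3* (-0.65 ± 0.06, adjusted p = 2.5e-06), beside 20% of all genes lower. In luminal ER- cells of LATS1/2 KO against WT, as a description, 0 of 7 were higher and 4 lower, with a median of -0.70. Of all genes 31.1% were higher and 28.5% lower in those cells.

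Genes whose levels were most like those of a member were ranked by Pearson's r of log2(CPM + 1) over 39 sums of lineages and libraries, among 14939 genes. The sums share libraries and lineages and pool WT with knockout libraries, so r is a description. For *Sox11* they were the *EYFP* reporter (r = 0.93), *Sema3e* (0.93), *Slc25a48* (0.90), *2310007B03Rik* (0.90) and *Igfbp2* (0.90). The *EYFP* reporter needs Cre, which the WT mice lacked, and *Sox11* was picked because it appeared in knockout luminal cells. A high r between *Sox11* and *EYFP* was thus built in by genotype and by that choice, and nothing is read from it. Whether *Sox11* and these genes go together within the knockout sums alone was not tested here. For *Sox4* the leading gene was *Gm26735* (r = 0.91), followed by *Cttn* (0.84), *Sh3yl1* (0.84) and *Tpd52l1* (0.83). *Gm26735* is a noncoding transcript annotated on the opposite strand across the *Sox4* gene, and whether reads of the pair were kept apart was not examined. Among the genes nearest to *Sox9* were *Celsr2* (0.90), *Hmgn1* (0.88), *Sdc4* (0.87) and *Lurap1l* (0.87). *Sox10* was nearest to *Irx1* (0.91), *Tfap2c* (0.88), *Irx2* (0.87), *Gm15867* (0.86) and *Lcn2* (0.85). *Sox12* was least closely followed, with *Arpin* (0.79), *Rnd2* (0.78), *Arhgef17* (0.78) and *Tbx3* (0.78) among its nearest genes.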

How the data were processed

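Single-cell RNA was measured in 4 mammary gland libraries, 2 WT and 2 LATS1/2 KO. The authors deposited raw UMI counts per gene and barcode, made with Cell Ranger (6.1.2 in the matrix headers, 3.1.0 and mm10 in the submitters' processing notes). Cells were required to show over 500 genes and a mitochondrial share below 20%, which left 3515 to 5272 per library. No doublets were removed, and leaving out the 4% with the highest Scrublet score was an alternative. Cells were gated into lineages by summed marker levels, with thresholds set after the data were seen, and 90.62% of gated cells had the same lineage by clustering (17 clusters, scanpy 1.11.5). Counts were summed per library and lineage (at least 20 cells) and tested with edgeR 4.0.16 (TMM, low-count filter, quasi-likelihood test, Benjamini-Hochberg adjustment over all genes tested, threshold 0.05). Comparisons within libraries had the mouse as a block. DESeq2 1.42.0, other scaling, no filter, cluster lineages, thinning and leaving out each library were alternatives. Scripts were tested on simulated data. Intervals cover counting error only.

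The members, lists and tests were chosen with earlier results of these data known. The *EYFP* comparison had been planned as a test and is given as a description, because the choice of the group names it. Genes named are the members, the other SOX genes that could be tested, up to 2 list genes with the highest and 2 with the lowest fold change past the threshold, and the 5 genes most like each member, some of which are not reported here. The chi-square of counts per degree of freedom between replicates was 21.0 in WT and 28.8 in LATS1/2 KO, so no library was a repeat of another, and 43 barcodes were shared between libraries.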

Additional observations from a re-analysis of the deposited data

Results flagged for a closer look

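Some members moved one way in one lineage and the opposite way in another, with both LATS1/2 KO libraries on the same side of both WT libraries in each. On the scale of log2 of the mean CPM in LATS1/2 KO over WT, *Sox9* gave -0.60 in luminal ER- cells and -0.27 in luminal ER+ cells but 0.34 in basal cells. *Sox10* gave 0.65 in luminal ER- cells and -0.31 in basal cells. *Sox12* gave 1.77 in luminal ER- cells, -0.51 in basal cells and 1.55 in fibroblasts, where WT held 1 and 0 UMIs. These differences between lineages were not tested, and none of the basal or fibroblast values of *Sox9*, *Sox10* or *Sox12* passed a test of its own. The luminal ER- value of *Sox10* was smaller after TMM scaling, as given above, and no direction is read from it.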

How the results depend on the processing

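Among the alternatives that kept all libraries, 404 values of single genes kept their direction and side of the threshold, 9 changed sign, 13 were no longer called and 6 were newly called. The causes were not tested. The *Sox4* rise in basal cells, fibroblasts and endothelial cells was called under every alternative run. In luminal ER- cells *Sox4* was 0.34 and 5 members passed when total UMIs alone set the scale. In luminal ER+ cells 4 members passed with no low-count filter. Nothing is read from these luminal member counts, since these contrasts chose the group. The share of all genes that passed under the same settings is not given here. With the sums thinned to the smallest, 2561 genes passed in luminal ER+ cells (3988 otherwise), 208 in fibroblasts (423), 350 in endothelial cells (592), and 2393, 2381 and 2900 in the WT comparisons of luminal ER- with luminal ER+, basal with luminal ER- and basal with luminal ER+ cells (8304, 4565 and 5280). DESeq2 called 1382 genes in basal cells (2902), 259 in endothelial cells, 1212 for *EYFP* (4730) and 2229 for *Krt14* (5339). With no low-count filter 852 genes passed in fibroblasts and 151 in endothelial cells. With lineages from clusters 1 member passed in basal cells (2 otherwise, counting *Sox11* with its WT counts of 0) and *Sox9* in endothelial cells was -0.28. With cells thinned before the split 244 genes passed for *EYFP*, where *Sox9* was 0.034, and 2334 for *Krt14*. *Sox12*, near 0 for *Krt14*, was 0.012 with DESeq2, 0.016 with no filter and 0.13 with clusters. Between WT basal and luminal ER+ cells *Sox9* was 0.015 with clusters, 0.0039 without the highest Scrublet scores and 0.060 with thinned sums, and 1 member passed with DESeq2, without the mouse block and with clusters. *Sox10* in basal cells was called lower with thinned sums (-0.72, adjusted p = 0.031).

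Replicate numbers did not pair the libraries (correlation of deviations -0.0336). With the replicate number as a block 971 genes passed in fibroblasts, 7968 in luminal ER-, 4337 in luminal ER+, 2901 in basal and 586 in endothelial cells. Without the block of the mouse 210 genes and 1 member passed for *EYFP* and 2400 genes for *Krt14*, where *Sox9* was no longer called (adjusted p = 0.10).

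Leaving out 1 library left a group with 1 sample, assumed to vary like the other group. The genes past the threshold then ranged from 1879 to 3101 in luminal ER+ cells, 37 to 633 in fibroblasts and 341 to 792 in endothelial cells. The members that passed ranged from 1 to 3 in basal cells and from 1 to 2 in endothelial cells. The second endothelial member was *Sox9* without WT replicate 1, when its only WT sum held 0 UMIs. *Sox4* in luminal ER- cells ranged from -0.092 to 0.039, above 0 without WT replicate 1 and without LATS1/2 KO replicate 1. *Sox10* in luminal ER+ cells ranged from -0.082 (without LATS1/2 KO replicate 2) to 1.14. *Sox9* ranged from -0.94 to 0.11 (without WT replicate 2) in fibroblasts and from -0.65 (without WT replicate 2) to 7.20 in endothelial cells. Small WT stromal sums (23 to 59 cells) limited the low-level members there.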
